A study of Mus musculus with 8 samples.

Results

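Siglecs are receptors of the immunoglobulin family that bind sialic acid, the sugar that caps most glycans on vertebrate cells. The 6 genes described here, Siglec1, Siglece, Siglecf, Siglecg, Cd22 and Cd33, were taken by name from the mouse Siglecs that immune cells carry. Their Ensembl IDs were 6 of the 55487 genes counted. All 6 were among the 20631 genes that passed the filter on low counts, although Siglec1 and Siglece reached its level of 0.181 counts per 1000000 (CPM) in 2 of 4 cDC1 libraries, and the other 4 in all 8 libraries. Their transcripts were followed in conventional dendritic cells (cDC), the spleen cells that take up antigen and show it to T cells, and which fall into the types cDC1 and cDC2.

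The RNA-seq data were 8 libraries in 4 groups of 2, from sort-purified, untreated spleen cells of mice with the strain label C57BL/6. The groups were cDC1 with the genotype Zeb2 -165(d1+2+3), wild-type cDC1, cDC2 with the genotype Irf8 +32-/-, and wild-type cDC2. The genotypes are named for regulatory elements of Zeb2 and Irf8, transcription factors of the cDC2 and cDC1 lineages, and neither label names a deletion of coding sequence. They are called the Zeb2 mutant and the Irf8 mutant from here on. Each mutant was profiled in 1 cell type, so the mutant comparison of cDC1 with cDC2 is also one of genotypes. No source used here gives the sort gates, the animals' ages or how many animals gave a library. The libraries held 49380686 to 58611821 counts. Every one of 11 cDC1 markers was higher, and every one of 11 cDC2 markers lower, in cDC1 than in cDC2, in wild type and in the mutants (edgeR's quasi-likelihood test); 1 of the cDC1 markers and 2 of the cDC2 markers had passed the filter through the cell type where they are high.

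Most Siglecs are inhibitory: when sialic acid on the same or a neighbouring cell engages them, short tyrosine motifs in the tail (ITIMs) recruit the phosphatase SHP-1, encoded by Ptpn6, and damp activation. A smaller set has no such motif and either signals through the adaptor DAP12, encoded by Tyrobp, or serves in adhesion. In mice, Siglecg and Cd22 are best known from B cells, Siglece from neutrophils and macrophages, Siglecf from eosinophils, Cd33 from myeloid cells and Siglec1 (sialoadhesin, CD169) from macrophages of the spleen's marginal zone and of lymph nodes. Siglece, Siglecf, Siglecg and Cd33 belong to the rapidly evolving CD33-related branch.

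By position, 4 of the 6 genes were neighbours on chromosome 7 (GRCm38): Siglecf (ENSMUSG00000039013, 43351341 to 43359531, plus strand), Siglecg (ENSMUSG00000030468, 43408204 to 43418358, plus strand), Cd33 (ENSMUSG00000004609, 43524216 to 43544428, minus strand) and Siglece (ENSMUSG00000030474, 43651070 to 43660161, minus strand) span 309 kb. Cd22 (ENSMUSG00000030577, 30865402 to 30880342, minus strand) lies 12.5 Mb away on the same chromosome. Siglec1 (ENSMUSG00000027322, 131069220 to 131086765, minus strand) is on chromosome 2. Only Cd22 shared exon bases with another annotated gene, the antisense gene Gm29439, over 479 bases, and Gm29439 had 0 counts in every library. The 4 neighbours are paralogs, and how reads shared between genes were counted is not stated.

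Promoter sequences of 5 of the genes were taken from RefSeq (GRCm38.p6), each as the 250 bases before an annotated start, printed 5′ to 3′ on the gene's own strand. Siglece and Cd22 are shown for the motifs searched, and Siglecf and Cd33 for a run of bases they share. In Siglece the capitals mark GAGGAAG or its reverse complement CTTCCTC, the core bound by the myeloid and B cell factor PU.1. In Cd22 they mark CACCTG (reverse complement CAGGTG), an E-box that Zeb proteins bind. In Siglecf and Cd33 they mark the longest run of bases the 2 promoters have in common.
Siglece, chr7:43660162-43660411, minus strand: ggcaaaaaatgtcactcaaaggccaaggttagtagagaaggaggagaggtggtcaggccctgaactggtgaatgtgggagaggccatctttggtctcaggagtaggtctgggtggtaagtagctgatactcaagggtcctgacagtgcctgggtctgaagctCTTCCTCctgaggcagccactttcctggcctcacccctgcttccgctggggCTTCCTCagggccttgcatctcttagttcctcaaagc
Cd22, chr7:30879029-30879278, minus strand: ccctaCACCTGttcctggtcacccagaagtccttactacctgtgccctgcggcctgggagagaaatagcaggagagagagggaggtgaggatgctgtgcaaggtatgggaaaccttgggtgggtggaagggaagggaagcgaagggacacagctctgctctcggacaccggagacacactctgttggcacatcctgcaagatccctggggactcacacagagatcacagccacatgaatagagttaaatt
Siglecf, chr7:43351091-43351340, plus strand: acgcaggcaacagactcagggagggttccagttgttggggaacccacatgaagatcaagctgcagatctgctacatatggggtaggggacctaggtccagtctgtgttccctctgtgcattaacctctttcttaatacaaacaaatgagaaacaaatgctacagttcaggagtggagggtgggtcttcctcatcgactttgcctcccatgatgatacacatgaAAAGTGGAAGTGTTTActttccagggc
Cd33, chr7:43533172-43533421, minus strand: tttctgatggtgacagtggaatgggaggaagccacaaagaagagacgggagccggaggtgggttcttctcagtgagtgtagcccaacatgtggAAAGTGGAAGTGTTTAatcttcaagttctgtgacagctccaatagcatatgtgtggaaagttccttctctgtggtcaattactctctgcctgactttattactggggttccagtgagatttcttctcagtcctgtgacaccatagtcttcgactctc

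The shared run of Siglecf and Cd33 was 16 bases long and began at base -27 of Siglecf and base -157 of Cd33, counted back from the start. Among all 10 pairs of the 5 promoters, the other 9 shared runs of 7 to 10 bases. The start used for Cd33 lies 11257 bases, and that for Cd22 1314 bases, inside the gene as GENCODE annotates it. Over windows of 300 bases (250 before to 50 after the start, both strands), the PU.1 core was in 4 of the 6 windows of these 5 genes, in Siglece (bases -88 and -37), Siglecf (-66), Cd33 (-226) and 1 of the 2 windows of Siglecg (-213), and in 13.6% of all 32851 promoters. CACCTG was in 1 of the 6 windows, that of Cd22 (base -245), and in 20.2% of all promoters. The composite element read by PU.1 together with interferon regulatory factors such as IRF8 (GGAA and GAAA, 2 bases apart) and the interferon response core (GAAA and GAAA, 2 bases apart) were in 0 of the 6 windows, and in 2.72% and 3.44% of all promoters. These matches describe letters in a window and nothing about binding.

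All 6 Siglec transcripts were lower in cDC1 than in cDC2, in wild type and in the mutants alike. In wild type the difference ranged from 7.64-fold for Cd22 to 217-fold for Siglece (109-fold without wild-type cDC1 replicate 3), and in all 6 genes no library of one cell type reached the level of the other. Over all genes tested, 30.1% were called, 15.9% lower in wild-type cDC1 and 14.2% higher (edgeR's quasi-likelihood test, Benjamini-Hochberg adjusted p under 0.05). Groups that did not overlap, with cDC1 lower, made up 32.1% of genes. The median log2 fold change of the 6 genes was -3.21, against 0.03 over all genes. In the mutants 27.9% of all genes were called, 15% lower and 12.8% higher, 33.6% were apart with cDC1 lower, and the median of the 6 genes was -3.64 against -0.02. In RNA of pooled cells, fewer cells that carry a transcript and less RNA per cell cannot be told apart.

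**Figure D1:**
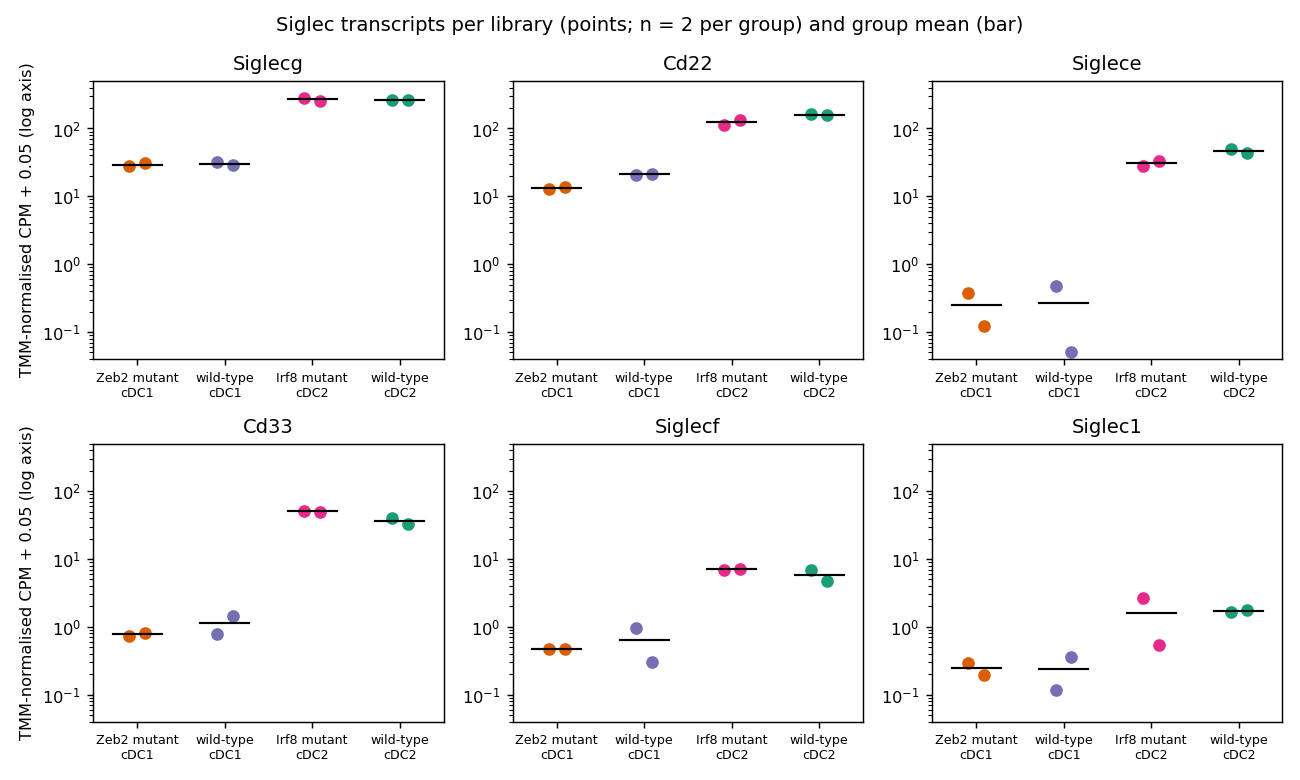
Level of each of the 6 Siglec transcripts in every library, as TMM-normalised CPM with 0.05 added, on a log axis, for Zeb2 mutant cDC1, wild-type cDC1, Irf8 mutant cDC2 and wild-type cDC2. Points are libraries and bars are means of n = 2; in every panel the 4 cDC1 points lie below the 4 cDC2 points, with Siglecg at 27.8 to 31.6 CPM in cDC1 and 255 to 280.3 CPM in cDC2.

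Siglecg, an inhibitory receptor that in mice restrains B cells and, with its partner CD24, responses to damaged cells, had the most abundant transcript of the family in every library. It stood at 27.8 and 30.7 TMM-normalised CPM (scaled between libraries) in Zeb2 mutant cDC1, 31.6 and 29.1 in wild-type cDC1, 280.3 and 255 in Irf8 mutant cDC2, and 260.3 and 265 in wild-type cDC2. The libraries split by cell type, and within a cell type mutant and wild type overlapped. The log2 fold change of cDC1 over cDC2 was -3.11 in wild type (SE 0.133, edgeR adjusted p = 1.09e-07) and -3.19 in the mutants (SE 0.134, adjusted p = 9.85e-08). It had 1615 to 14906 counts per library.

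Cd22, the inhibitory co-receptor of the B cell antigen receptor, came next. Its transcript was at 12.9 and 13.6 CPM in Zeb2 mutant cDC1, 20.5 and 21.5 in wild-type cDC1, 114 and 135 in Irf8 mutant cDC2, and 165 and 156 in wild-type cDC2. Here the 4 groups did not overlap and stood in the order Zeb2 mutant cDC1, wild-type cDC1, Irf8 mutant cDC2 and wild-type cDC2, low to high. The log2 fold change of cDC1 over cDC2 was -2.93 in wild type (SE 0.141, edgeR adjusted p = 2.33e-07) and -3.24 in the mutants (SE 0.143, adjusted p = 1.31e-07).

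Siglece, an inhibitory receptor of mouse neutrophils and macrophages, showed the widest gap. In Zeb2 mutant cDC1 it had 0.327 and 0.0737 CPM, in wild-type cDC1 0.432 and 0, in Irf8 mutant cDC2 28.4 and 33.1, and in wild-type cDC2 50.1 and 43.8. The cDC1 values rest on 0 to 25 counts per library, and a count of 0 in wild-type cDC1 replicate 3 allows up to 0.0513 CPM (3 counts, covering counting error only). The transcript was 217-fold lower in wild-type cDC1 (log2 fold change -7.75, SE 0.798, edgeR adjusted p = 0.000218) and 154-fold lower in the mutant comparison (-7.22, SE 0.795, adjusted p = 0.000322). The size of these folds rests on few reads in cDC1. In wild type the difference was 109-fold without cDC1 replicate 3 and at least 915-fold without cDC1 replicate 2, where the remaining library had 0 counts and was set to the 3-count limit. In the mutant comparison it was 94.1-fold without Zeb2 mutant replicate 3 and 417-fold without Zeb2 mutant replicate 2. The cDC2 level rests on 1475 to 2758 counts.

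Cd33, a CD33-related receptor whose tail in mice differs from the human one, was at 0.688 and 0.774 CPM in Zeb2 mutant cDC1 and 0.743 and 1.42 in wild-type cDC1. In cDC2 it was at 50.8 and 49.8 CPM in the Irf8 mutant and 39.6 and 32.4 in wild type. It was low in all cDC1 libraries, and in cDC2 both mutant libraries lay above both wild-type ones. Cd33 was 33.3-fold lower in wild-type cDC1 (log2 fold change -5.05, SE 0.278, edgeR adjusted p = 5.58e-07) and 68.8-fold lower in the mutant comparison (-6.10, SE 0.295, adjusted p = 2.38e-07). The test of the difference between these log2 fold changes (-1.05, SE 0.373, unadjusted p = 0.0182) did not pass over all genes (edgeR adjusted p = 0.541).

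Siglecf, which in mice marks eosinophils and alveolar macrophages and promotes eosinophil death, was a low transcript. It was at 0.430 and 0.424 CPM in Zeb2 mutant cDC1, 0.915 and 0.256 in wild-type cDC1, 6.93 and 7.15 in Irf8 mutant cDC2, and 6.78 and 4.63 in wild-type cDC2. Within cDC1 the mutant values fell between the wild-type ones. The log2 fold change of cDC1 over cDC2 was -3.28 in wild type (SE 0.501, edgeR adjusted p = 0.000654) and -4.04 in the mutants (SE 0.522, adjusted p = 0.000221). The wild-type cDC1 libraries set the size of the first of these, a 9.74-fold difference that was 22.3-fold without cDC1 replicate 2 and 6.23-fold without cDC1 replicate 3.

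Siglec1, the adhesion receptor with no signalling motif, was the lowest of the 6 in cDC2. It had 0.241 and 0.147 CPM in Zeb2 mutant cDC1, 0.0691 and 0.308 in wild-type cDC1, 2.60 and 0.489 in Irf8 mutant cDC2, and 1.62 and 1.74 in wild-type cDC2. The Irf8 mutant libraries differed from each other more than from wild type: replicate 2 had 135 counts and replicate 3 had 24. The log2 fold change was -3.14 in wild type (SE 0.853, edgeR adjusted p = 0.0183) and -2.98 in the mutants (SE 0.851, adjusted p = 0.0246). The wild-type value was -2.44 without cDC1 replicate 2 and -4.56 without cDC1 replicate 3, and the mutant value was -3.72 without Irf8 mutant replicate 3. These calls were lost in wild type without cDC1 replicate 2 (edgeR adjusted p = 0.0901), cDC2 replicate 2 (0.0575) or cDC2 replicate 3 (0.0712). In the mutants they were lost without Zeb2 mutant replicate 2 (0.0857) or replicate 3 (0.142), without Irf8 mutant replicate 2 (0.327, log2 fold change -1.32), and by limma voom (0.0982).

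**Figure D2:**
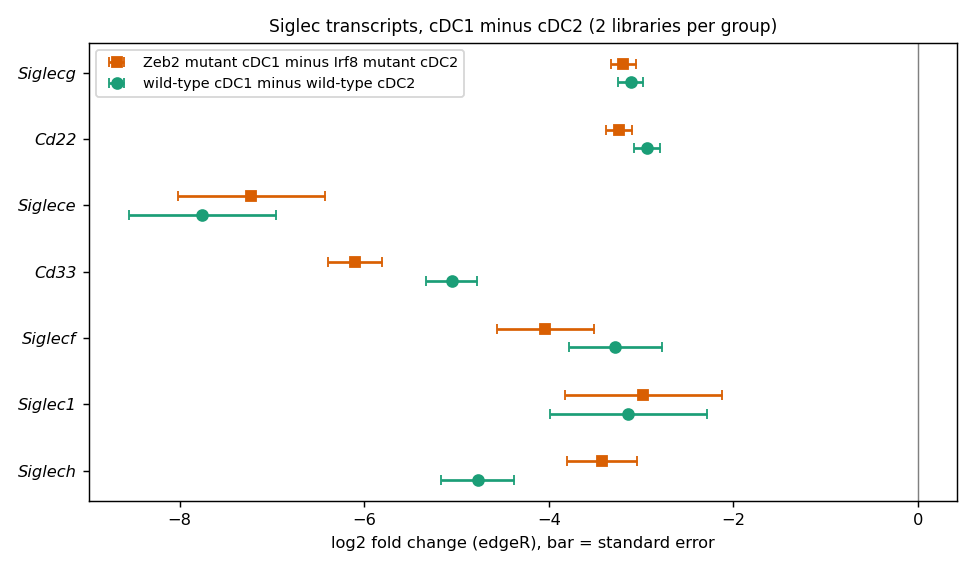
Log2 fold change of cDC1 over cDC2 with its standard error, for Zeb2 mutant cDC1 minus Irf8 mutant cDC2 (squares) and wild-type cDC1 minus wild-type cDC2 (circles), 2 libraries per group. All points for the 6 Siglecs and for Siglech lie left of 0, from -2.93 for Cd22 to -7.75 for Siglece in wild type.

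Compared per length, as the authors' FPKM (fragments per kilobase of exon and 1000000 counts), the family's make-up differed between the cell types. The 6 genes summed to 9.26 and 9.70 FPKM in Zeb2 mutant cDC1, 11.2 and 11.2 in wild-type cDC1, 101 and 106 in Irf8 mutant cDC2, and 116 and 113 in wild-type cDC2. Every cDC2 library had the same order of levels: Siglecg, Cd22, Siglece, Cd33, Siglecf and Siglec1. Siglecg made up 65.8% and 68.0% of the sum in Zeb2 mutant cDC1, 58.1% and 56.9% in wild-type cDC1, 55.2% and 49.7% in Irf8 mutant cDC2, and 44.5% and 47.6% in wild-type cDC2. Siglece made up 2.01% and 0.424% in Zeb2 mutant cDC1, 2.07% and 0 in wild-type cDC1, 14.5% and 16.8% in Irf8 mutant cDC2, and 22.3% and 20.5% in wild-type cDC2. In cDC1 the 4 lesser members changed places from library to library, at FPKM of at most 0.324.

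In wild-type cDC2, Siglecg averaged 52.7 ± 1.77 FPKM (SD, n = 2), Cd22 30.7 ± 0.659, Siglece 24.5 ± 1.82, Cd33 4.47 ± 0.540, Siglecf 1.97 ± 0.482 and Siglec1 0.227 ± 0.0166, and no 2 neighbours in this order overlapped. By mean FPKM, Siglecg ranked 871 of the 20631 genes tested, Cd22 1622 and Siglece 2036, whereas Siglec1 ranked 15409. In wild-type cDC1, Siglecg ranked 5969 with 6.43 ± 0.0802 FPKM and Cd22 7367 with 4.25 ± 0.331 FPKM. The remaining members ranked between 15483 and 19192 there.

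Between Zeb2 mutant and wild-type cDC1, 0 of the 6 Siglecs passed edgeR's test, which called 0.0679% of all genes (0.0533% lower and 0.0145% higher). Cd22 was the gene closest to it. Its levels of 12.9 and 13.6 CPM in the mutant were 63.0% of those in wild type, 20.5 and 21.5 CPM, and the groups did not overlap, as was so for 19.8% of genes in the lower direction. The log2 fold change was -0.67 (SE 0.134, unadjusted p = 0.000537, edgeR adjusted p = 0.131). Cd22 was called by DESeq2 (adjusted p = 0.00292), by edgeR with no filter on low counts (0.0120) and by edgeR without wild-type cDC1 replicate 3 (0.0334). The adjusted p ranged from 0.00292 to 0.674 over the alternatives tried, so the call rests on the method and on single libraries. Genes of the cDC2 marker list went both ways in the Zeb2 mutant. Both mutant libraries lay below both wild-type ones for 5 of 11, against 19.8% of all genes. They lay above them for 2, a direction for which the share of all genes was not counted. Those 2 were the Zeb2 gene (2.2 and 3.5 CPM in the mutant, 2.1 and 2.1 in wild type) and Cd4 (12.7 and 10.8 against 10.15 and 6.72). The 11 markers summed to 75.3 and 81.1 CPM in Zeb2 mutant cDC1 and 128 and 101 in wild-type cDC1. Of them edgeR called Cd209a, a C-type lectin of cDC2, with 0.378 and 0.405 CPM in the mutant and 11.5 and 5.52 in wild type (21.7-fold lower, adjusted p = 0.00322). Esam was at 56.5% and Cd300a, an inhibitory receptor, at 63.2% of wild type, neither called (adjusted p = 0.260 and 0.210). The part of cDC2 RNA in the Cd22 difference was not tested. Libraries of both groups differed along gene length: Spearman's rho of replicate 2 minus replicate 3 on length was 0.242 in Zeb2 mutant cDC1 and -0.391 in wild-type cDC1, across 8398 genes, which are not independent replicates. With each library's length trend removed, the log2 fold change of Cd22 was -0.70 (edgeR adjusted p = 0.115).

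The other 5 genes gave less. Cd33 had a log2 fold change of -0.57 (SE 0.299, edgeR adjusted p = 0.542) and Siglecf one of -0.45 (SE 0.516, adjusted p = 0.820), with mutant and wild-type libraries overlapping. Siglecg differed by -0.05 (SE 0.124, adjusted p = 0.932). Siglece and Siglec1, at 0 to 25 counts per library, had standard errors of 1.07 and 0.883. A difference well above its standard error could also go uncalled, as Cd22 did at -0.67 with an SE of 0.134.

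Between Irf8 mutant and wild-type cDC2, 0 of the 6 genes passed edgeR's test, nor did any other gene (0% called, 1313 genes at an unadjusted p under 0.05, DESeq2 151 genes and limma voom 4, none of the 6 among them). Siglece was at 65.5% of wild type, with 28.4 and 33.1 CPM in the mutant and 50.1 and 43.8 CPM in wild type (log2 fold change -0.61, SE 0.536, edgeR adjusted p = 0.947). Cd22 was at 77.8% of wild type (-0.36, SE 0.130, unadjusted p = 0.0188, adjusted p = 0.697). Cd33 was 1.40-fold higher in the mutant (0.48, SE 0.223, unadjusted p = 0.0555, adjusted p = 0.792) and Siglecf 1.23-fold higher (0.30, SE 0.443, adjusted p = 0.981). In these 4 genes the groups did not overlap, with the mutant lower for Siglece and Cd22 and higher for Cd33 and Siglecf; among all genes 19.7% were apart with the mutant lower and 19.6% with the mutant higher. Siglecg (0.03, SE 0.122) and Siglec1 (-0.12, SE 0.752) overlapped.

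**Figure D3:**
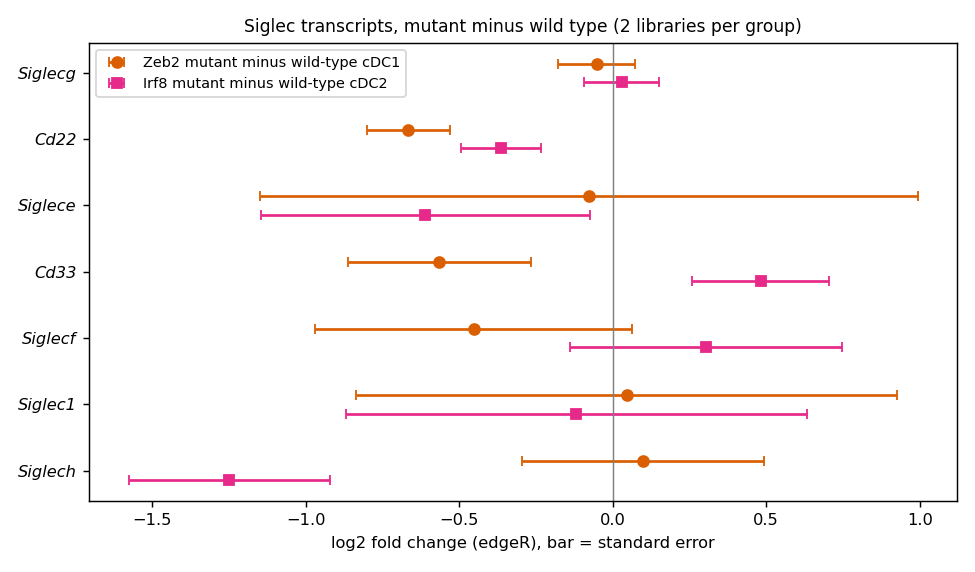
Log2 fold change with its standard error for Zeb2 mutant minus wild-type cDC1 (circles) and Irf8 mutant minus wild-type cDC2 (squares), 2 libraries per group. Siglecg lies within 0.06 of 0 in both, and Cd22 is below 0 in both (-0.67 and -0.36). The longest bars are those of Siglece and Siglec1 in cDC1, at 0 to 25 counts per library. In cDC2 the bar of Siglece is 0.536 at 1475 to 2758 counts.

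The effect of the Zeb2 mutation in cDC1 minus that of the Irf8 mutation in cDC2 was called for 0.0194% of all genes and for 0 of the 6. Cd33 had the smallest unadjusted p of the 6 in it, given above. For Cd22, with values below wild type in both mutants, the difference between the effects was -0.30 (SE 0.187, edgeR adjusted p = 0.751). The mutant comparisons each use their own wild-type libraries.

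Of the Siglec genes outside the 6, Siglech, which marks plasmacytoid dendritic cells and signals through DAP12, had the pattern of the family. It was at 0.567 and 0.295 CPM in Zeb2 mutant cDC1, 0.501 and 0.308 in wild-type cDC1, 4.58 and 4.75 in Irf8 mutant cDC2, and 11.1 and 11.1 in wild-type cDC2. It was lower in cDC1 in wild type (log2 fold change -4.77, SE 0.394, edgeR adjusted p = 9.23e-06) and in the mutants (-3.42, SE 0.377, adjusted p = 7.23e-05). In the Irf8 mutant it was at 42.1% of wild-type cDC2, a log2 fold change of -1.25 that did not pass edgeR's test (SE 0.329, unadjusted p = 0.00336, adjusted p = 0.462) and did pass DESeq2's (adjusted p = 0.0200). Mag, the myelin-associated Siglec of glial cells, was at most 0.387 CPM in any library and was not called. Siglec15, known from osteoclasts, had 7 counts in all 8 libraries together and was not tested.

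The genes around the CD33-related cluster on chromosome 7 were counted as well. Between the start of Siglecf and the end of Siglece the annotation has 25 genes, 12 of which were tested. Of these, 9 were lower and 1 higher in wild-type cDC1, and 8 lower and 1 higher in Zeb2 mutant cDC1 than in Irf8 mutant cDC2. Over all genes 15.9% were lower and 14.2% higher in wild type, and 15% and 12.8% in the mutants. Both counts of lower genes include the 4 Siglecs that were used to set the interval. Beside the 4 Siglecs, the lower genes in wild type were Vsig10l (log2 fold change -2.52), Zfp658 (-3.21), Zfp719 (-1.32), Zfp819 and Ceacam18. Ceacam18 passed the filter through cDC2 alone, so its place in both counts is no support for them, and Zfp819 averaged 0.0171 CPM in wild-type cDC1, under the filter level, and 0.684 in wild-type cDC2. The higher gene was Nkg7, which encodes a granule protein of cytotoxic lymphocytes and lies between Siglecg and Cd33 (13.8 ± 1.54 CPM in Zeb2 mutant cDC1, 10.7 ± 2.45 in wild-type cDC1, 5.52 ± 0.253 in Irf8 mutant cDC2 and 6.20 ± 1.35 in wild-type cDC2). Etfb, an enzyme subunit of mitochondria, and the pseudogene Gm9278 were not called. Zfp819 was not called in the mutant comparison (edgeR adjusted p = 0.790). No gene of the interval passed edgeR's test between a mutant and its wild type.

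Genes whose pattern over the 8 libraries was most like that of each Siglec were named by the root mean square difference of mean-centred log2 CPM over 13827 protein-coding genes. Siglecg was nearest to Flvcr1 (0.154), Tcp11l2 (0.156) and Ston2 (0.173). Cd22 was nearest to Mreg (0.133), Tent5a (0.167) and Sox4 (0.184), and Mreg had 28.2 CPM in Zeb2 mutant cDC1, 39.8 in wild-type cDC1, 237 in Irf8 mutant cDC2 and 300.1 in wild-type cDC2. Cd33 was nearest to Nkx2-3 (0.117), Sh2d1b1 (0.298) and Six3 (0.298), of which Nkx2-3 and Six3 had at most about 2.15 CPM in any group. Siglece was nearest to Clec4a1, Sirpb1c and Ptger3 (0.684 to 0.817), Siglecf to Alox5, Klri2 and Tbc1d30 (0.296 to 0.324), and Siglec1 to Selp, Grm4 and Mmp17 (0.373 to 0.485). Among the 6 themselves, Siglecg and Cd22 were closest (0.282) and Siglec1 and Siglece farthest apart (2.97).

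Downstream of the receptors, 7 of 12 signalling partners were lower and 1 higher in wild-type cDC1, against 15.9% and 14.2% of all genes. Ptpn6, which encodes the phosphatase SHP-1 that ITIMs recruit, was at 240 ± 4.74 CPM in Zeb2 mutant cDC1, 229 ± 9.22 in wild-type cDC1, 778 ± 50.8 in Irf8 mutant cDC2 and 880.1 ± 46.1 in wild-type cDC2 (log2 fold change in wild type -1.94, SE 0.122, edgeR adjusted p = 1.34e-06). The kinase genes Fgr (-3.25, SE 0.160), Syk (-2.35, SE 0.154) and Csk (-1.07, SE 0.118) were lower too, as were Tyrobp (-0.97), which encodes DAP12, and the Src-family kinase gene Lyn (-0.65). Ptpn11 and Inpp5d, which encode the phosphatases SHP-2 and SHIP-1, Fyn and Hcst were not called. Src was higher in cDC1 (1.95, SE 0.474, adjusted p = 0.0104) at 6.62 ± 1.52 CPM in wild-type cDC1 and 1.71 ± 0.569 in wild-type cDC2, a call lost without wild-type cDC2 replicate 2. In the mutants 7 were lower and 1, Ptpn11, was higher (0.59, edgeR adjusted p = 0.0242), against 15% and 12.8% of all genes.

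Few of the genes that make sialic acid were called between the cell types, and those that attach it were called in both directions. Of 8 genes that supply activated sialic acid, 1 was higher in wild-type cDC1, near the 14.2% of all genes called higher. This was Cmas, which encodes the enzyme that activates the sugar (log2 fold change 0.50, SE 0.160, edgeR adjusted p = 0.0386). In the mutants 0 of 8 were called, against 27.9% of all genes. Without wild-type cDC1 replicate 3, 1 of the 8 was called higher, and without any other single library 0 were. Gne, which encodes the first enzyme of sialic acid synthesis, was at 29.4 ± 4.39 CPM in Zeb2 mutant cDC1, 28.4 ± 1.21 in wild-type cDC1, 22.6 ± 2.56 in Irf8 mutant cDC2 and 29.2 ± 3.33 in wild-type cDC2. The median log2 fold change of these 8 genes was 0.01 in wild type.

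Among the sialyltransferase genes, 15 of 20 were tested, and 2 were higher and 6 lower in wild-type cDC1. Over all genes 14.2% were higher and 15.9% lower, so the count of higher genes was near that share. In the mutants 2 were higher and 5 lower, against 12.8% and 15% of all genes. Of the 15, 1 had passed the filter through cDC2 alone. In the mutants 3 were lower without Zeb2 mutant replicate 3. St8sia6 and St8sia1, whose enzymes add sialic acid onto sialic acid, were 45.9-fold and 38.4-fold lower in wild-type cDC1. St8sia6 had 4.19 ± 0.0331 CPM in Zeb2 mutant cDC1, 5.27 ± 0.317 in wild-type cDC1, 225 ± 43.3 in Irf8 mutant cDC2 and 242 ± 6.25 in wild-type cDC2 (log2 fold change in wild type -5.52, SE 0.178, edgeR adjusted p = 1.88e-08). St3gal2, of an α2,3-sialyltransferase, was 5.79-fold lower. St3gal5, which encodes the synthase of the ganglioside GM3, went the other way, with 241 ± 17.1 CPM in wild-type cDC1 and 60.7 ± 5.30 in wild-type cDC2 (3.97-fold higher, adjusted p = 1.68e-06). St6gal1, of the enzyme that makes the α2,6-linked ligand of CD22, was 1.35-fold lower (adjusted p = 0.0175), a call close to the threshold.

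Of the sialidase genes, 2 of 4 tested were lower in wild-type cDC1 and in the mutants, against 15.9% and 15% of all genes. These were Neu1, of the lysosomal sialidase, with 25.8 ± 2.67 CPM in wild-type cDC1 and 46.2 ± 1.15 in wild-type cDC2 (1.79-fold lower, edgeR adjusted p = 0.00373), and Ctsa, whose product protects that enzyme (5.11-fold lower). Of 5 proteins known to carry Siglec ligands, Cd24a, the partner of Siglecg, was 7.67-fold higher in wild-type cDC1, with 281 ± 7.52 CPM in Zeb2 mutant cDC1, 271 ± 66.6 in wild-type cDC1, 33.3 ± 1.26 in Irf8 mutant cDC2 and 35.3 ± 7.34 in wild-type cDC2 (log2 fold change in wild type 2.94, SE 0.199, adjusted p = 2.35e-06). Spn (CD43) and Ptprc (CD45) were 4.52-fold and 2.45-fold lower. Siglecg and its partner Cd24a thus differed between the cell types in opposite directions. In none of these 5 lists did edgeR call a gene between a mutant and its wild type. Over all genes it called 0.0679% for the Zeb2 mutant and 0% for the Irf8 mutant.

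**Figure D4:**
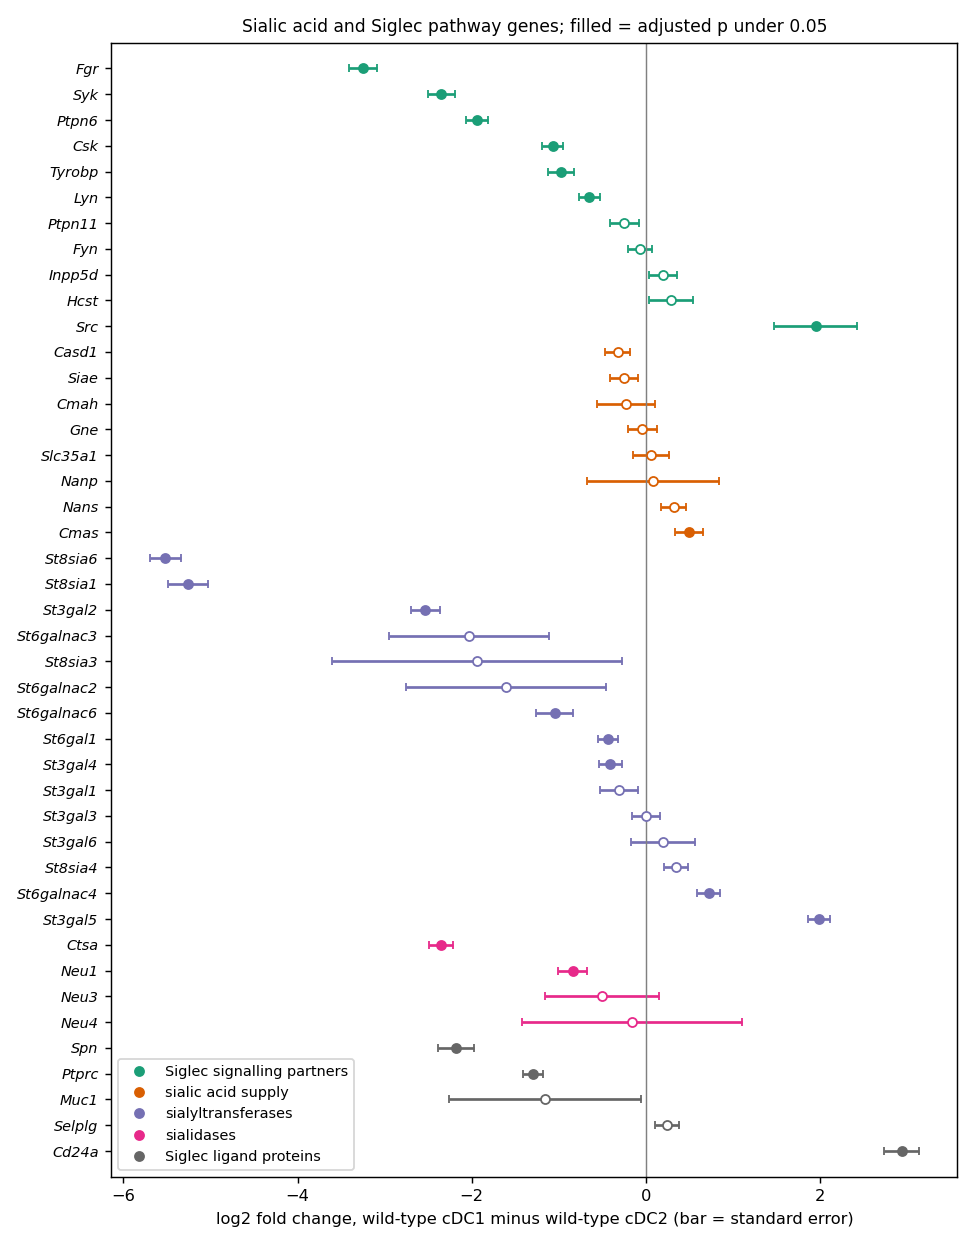
Log2 fold change of wild-type cDC1 over wild-type cDC2 with its standard error for tested genes of 5 lists, coloured by list; filled points passed edgeR's test over all genes. St8sia6 (-5.52) and St8sia1 (-5.26) lie farthest left and Cd24a (2.94) farthest right, while the 8 sialic acid supply genes lie near 0.

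Because several of these receptors are best known from other cells, marker genes of those cells were summed in every library. The 12 B cell markers summed to 405 and 448 CPM in Zeb2 mutant cDC1, 450 and 400.2 in wild-type cDC1, 386 and 312 in Irf8 mutant cDC2 and 492 and 582 in wild-type cDC2, most of it Ighm, at 266 to 524 CPM in the 8 libraries. In wild-type cDC1 2 of the 12 were higher and 3 lower, against 14.2% and 15.9% of all genes. Of the 12, 1 had passed the filter through cDC2 alone. Pax5, the factor that fixes B cell identity, averaged at most 0.577 CPM in any group. The 3 called in the direction of Cd22 and Siglecg were Cd79b, Blk and Fcer2a, the low-affinity IgE receptor of B cells. Cr2 also averaged less in wild-type cDC1 (0.239 CPM) than in wild-type cDC2 (2.98 CPM). Ms4a1 and Ighd went the other way. Ms4a1 averaged 28.3 CPM in wild-type cDC1 and 6.64 in wild-type cDC2, and Ighd 6.64 and 1.49. Fcer2a averaged 0.249 ± 0.0139 CPM in wild-type cDC1 and 4.95 ± 1.34 in wild-type cDC2 (log2 fold change -4.30, edgeR adjusted p = 0.000602). Cd79b averaged 1.74 ± 0.571 CPM in wild-type cDC1 and 21.7 ± 0.897 in wild-type cDC2. The part of B cell RNA in the Siglec differences was not tested.

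Most macrophage markers moved with the Siglecs: 11 of 14 were lower and 1 higher in wild-type cDC1, and 12 lower in the mutants. Over all genes 15.9% were lower and 14.2% higher in wild type, and 15% were lower in the mutants. Timd4 went the other way in wild type, at 7.59 CPM in cDC1 and 3.18 in cDC2. The 14 markers summed to 45.2 and 48.2 CPM in Zeb2 mutant cDC1, 78.4 and 68.9 in wild-type cDC1, 509 and 381 in Irf8 mutant cDC2 and 418 and 389 in wild-type cDC2. The largest part was Adgre1 in cDC2 (203.7 to 243.3 CPM) and Vcam1 in cDC1 (19.2 to 42.1 CPM). The Irf8 mutant library with the high Siglec1 value, replicate 2, was also the one with more C1qa, 15.7 CPM against 5.93 in replicate 3. Eosinophil markers summed to 5.24 and 5.23 CPM in Zeb2 mutant cDC1, 6.17 and 6.16 in wild-type cDC1, 41.3 and 20.3 in Irf8 mutant cDC2 and 16.6 and 17.7 in wild-type cDC2. Their granule gene Epx was at 4.95 and 0.387 CPM in the Irf8 mutant libraries, where Siglecf was at 6.93 and 7.15 CPM, and at 0 and 0.213 CPM in wild-type cDC2. Of the 6 eosinophil markers tested, 3 passed the filter through cDC2 alone, and no count of calls is given for them. None of the markers was at 0 in every library. The part of macrophage and eosinophil RNA in the Siglec differences was not tested.

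Neutrophil markers summed to 58.2 and 84.4 CPM in Zeb2 mutant cDC1, 10.4 and 1.15 in wild-type cDC1, 120 and 69.6 in Irf8 mutant cDC2 and 67.1 and 67.7 in wild-type cDC2. The Zeb2 mutant and wild-type cDC1 ranges did not overlap, although 0 of 9 tested markers passed edgeR's test between them, and Siglece was at most 0.327 CPM in the mutant. The sums of the groups were made of different genes. In wild-type cDC2 most was Csf3r (37.0 and 29.2 CPM) and Mmp9 (29.4 and 23.7), each at most 0.737 CPM in Zeb2 mutant cDC1. There most was S100a8, S100a9 and Ngp, and S100a8 was at 12.6 and 21.9 CPM against 0.0727 and 1.3 in wild-type cDC2. Monocyte markers summed to 294 to 399 CPM in cDC1 and 806 to 1049 CPM in cDC2, and markers of plasmacytoid dendritic cells, Siglech included, to 124 to 133 CPM and 210 to 256 CPM. In wild-type cDC1 5 of 8 monocyte markers were lower and 3 higher, 1 of the 8 having passed the filter through cDC2 alone. Of 8 tested plasmacytoid markers 3 were lower and 2 higher, against 15.9% and 14.2% of all genes. The part of these cells in the Siglec values was not tested.

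**Figure D5:**
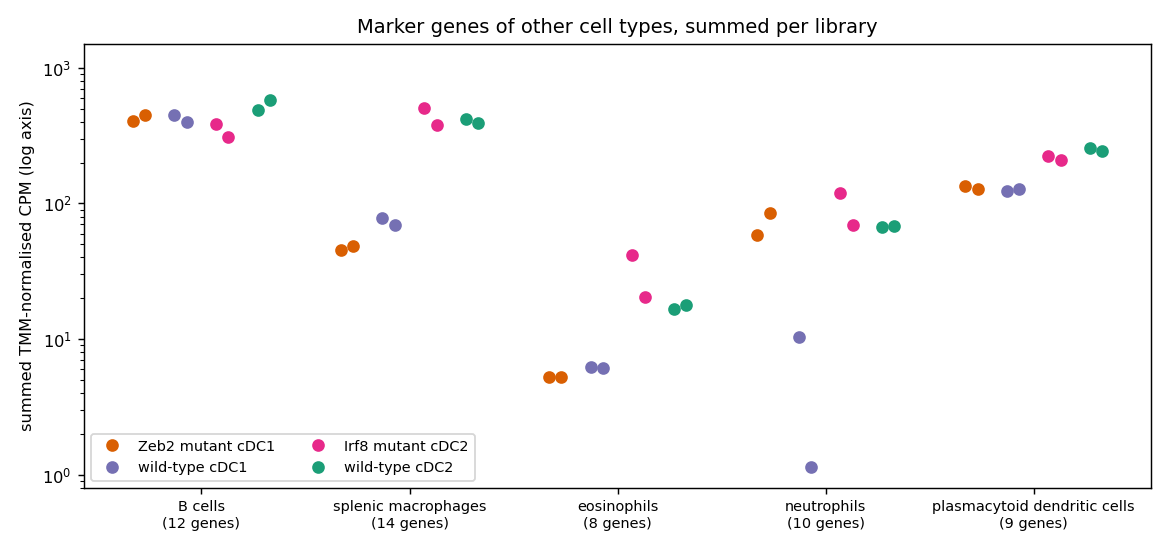
Summed TMM-normalised CPM of marker genes of 5 other cell types in each library, on a log axis, with Zeb2 mutant cDC1, wild-type cDC1, Irf8 mutant cDC2 and wild-type cDC2 side by side. Macrophage and eosinophil sums are higher in cDC2 than in cDC1, B cell sums overlap, and neutrophil sums are lowest in wild-type cDC1 (10.4 and 1.15 CPM).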

How the data were processed

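Each library came from 10 ng of RNA of about 100000 sorted cells (SMARTer Ultra Low kit, which does not mark strand; 150-base paired reads), per the labels' protocols. Per the submitters' processing notes, the tools were bcl2fastq, STAR, Subread featureCounts and Salmon, with GRCm38 and mm10; the counting of shared reads is not stated. The deposited counts are whole numbers of reads. The authors' CPM values were checked to be counts scaled to a column total of 1000000, and the authors' FPKM values to be those CPM divided by exon length in kilobases. The authors' TPM values were not used. Symbols came from GENCODE M21, which held 55141 of 55487 gene IDs.

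Counts were fitted with edgeR 4.0.16 in R 4.3.3 over all 8 libraries with 1 coefficient per group (filterByExpr, TMM, robust quasi-likelihood, 4 residual degrees of freedom, common biological coefficient of variation 0.286), and p-values were Benjamini-Hochberg adjusted over 20631 genes, with a threshold of 0.05. SE was taken as the size of a log2 fold change divided by the root of its F value, folds compare group means of TMM-normalised CPM, and SD has n = 2. Log2 CPM for likeness used a prior count of 2. DESeq2 1.42.0, limma 3.58.1 and other settings were alternatives. In simulated counts for wild-type cDC1 against cDC2, 56% of genes changed 2-fold and 86% of those changed 4-fold were recovered among 20631 genes. For the Zeb2 mutant these were 60% and 84%, and for the Irf8 mutant 46% and 92%. Changes were placed in 50 genes per fold size, drawn from genes averaging at least 1 CPM, with all other genes alike between groups. The share of changed genes was thus not that of the data, and rarer transcripts were not covered. These rates are not the power of the Siglec tests.

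What a replicate number stands for is not stated, so the p-values reflect spread between libraries that may be technical. The 6 genes and all gene lists were chosen with earlier results of these data known. Named were all 6 genes and the other Siglec genes. From other lists up to 4 called genes with the smallest adjusted p were named, or the 2 highest in CPM if there was no call, and per Siglec the 3 genes of most similar pattern. Other genes were named after their values were seen. Some list genes enter the counts and sums but are not reported here.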

Additional observations from a re-analysis of the deposited data

How the results depend on the processing

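Of the 6 Siglecs, 5 kept their calls between cDC1 and cDC2 under every alternative run, in wild type and in the mutants, and Siglec1 lost its call as given above. With the trend on gene length removed, the median of all genes in these comparisons moved to -0.083 and -0.119 (log2); all 6 Siglecs were still called lower there.

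Between mutants and wild type, counts of called genes depended on the method. For the Zeb2 mutant, 14 genes were called by the main test, 477 with no filter on low counts, 305 by DESeq2, 28 by limma voom, 7 with the groups compared alone and 6 with the length trend removed and a replicate block. Of the 6 Siglecs 1 was called with no filter and 1 by DESeq2, Cd22 in both. For the Irf8 mutant the count was 0, with 7 under DESeq2's size factors, 199 with no filter, 151 by DESeq2, 4 by limma voom, 7 with the groups compared alone and 2 with the length trend removed. For the difference of effects it was 4, with 306, 162, 1 and 1 with no filter, by DESeq2, with a replicate block and with that block and the length trend removed. The cause was not tested.

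Leaving out 1 library at a time gave 3800 to 6894 called genes between wild-type cDC1 and cDC2 (3800 and 3948 without cDC2 replicate 2 and 3), 0 to 1035 for the Zeb2 mutant (1035 without wild-type cDC1 replicate 3), with 0 to 1 Siglecs called. It gave 0 to 15 for the Irf8 mutant and 0 to 530 for the difference of effects.

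Log2 fold changes near 0 changed sign. For Zeb2 mutant cDC1, Siglece came to 1.49 by limma voom, 0.11 with the length trend removed and 0.14 with the replicate block added to that; Siglec1 came to -0.0623 with a replicate block, -0.0615 with the length trend removed and -0.17 with both. Without 1 library the range was -0.65 to 1.46 for Siglec1, -1.52 to 6.50 for Siglece, -1.10 to 0.73 for Siglecf, -0.13 to 0.019 for Siglecg and -0.45 to 0.49 for Siglech. For the Irf8 mutant it was -1.77 to 0.63 for Siglec1 and -0.041 to 0.10 for Siglecg. For the difference of effects it was -0.59 to 1.82 for Siglec1, -0.91 to 7.11 for Siglece and -1.40 to 0.43 for Siglecf.

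Deviations of same-numbered libraries correlated at -0.183 to 0.069 over 8398 genes in the 6 pairs of groups. Each library's length trend enters these deviations, so they cannot tell whether same-numbered libraries were paired. With a replicate block 13 genes were called for the Zeb2 mutant and 0 for the Irf8 mutant, and the Siglec counts were 6, 6, 0 and 0 as without it. A lone library left in a group was assumed to vary like the other groups.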
